A study of Mus musculus with 108 samples.

Results

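The genes described here are 9 that mark conventional dendritic cells or their development: Flt3, Zbtb46, Batf3, Irf8, Xcr1, Clec9a, Itgae, Cd209a and Dpp4. They were picked by gene symbol from a count table of 49585 genes, and each symbol matched exactly 1 row. The table holds RNA-seq read counts for libraries of myeloid cells that were purified by flow cytometry from mice with lung-to-brain metastasis or from tumour-free mice. Levels are given as CPM, the usual depth-scaled count with TMM scaling of the library totals, a scale on which values of 1 gene can be compared between libraries but values of different genes cannot.

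All mice were Balb/C athymic nude animals (CAnN.Cg-Foxn1nu/Crl), which have no functional thymus and few T cells, so every group shares that background. From metastasis-bearing brains the labels give 4 populations: BMDM (bone marrow-derived macrophages, called monocyte-derived macrophages in the design text), inflammatory monocytes, microglia and granulocytes. Unirradiated tumour groups carry a small or a large tumour stage, with 5 small-stage and 5 large-stage libraries of BMDM and of microglia, and 4 small-stage and 5 large-stage libraries of monocytes and of granulocytes. After whole-brain radiotherapy each population has 3 libraries at day 3 after 1x10 Gy, 4 at day 3, 4 at day 5 and 3 at day 10 of 5x2 Gy, all with tumour stage not stratified. Tumour-free mice gave 4 libraries of microglia and 4 of blood monocytes, and 3 microglia libraries each are titled 5x2 D3 and 5x2 D5 although their radiotherapy field reads none. The labels do not say from which event days were counted, which gates defined each population, or whether libraries of 1 group came from different animals. The p-values therefore describe how these libraries scatter, and that scatter may be technical.

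Conventional dendritic cells arise in the bone marrow from precursors that depend on FLT3 ligand acting through its receptor FLT3, and they carry the zinc finger factor ZBTB46, which monocytes and most macrophages lack. The cDC1 subset needs the transcription factors BATF3 and IRF8, displays XCR1, CLEC9A and the integrin CD103, and is known for taking up dead cells and presenting their antigens to CD8 T cells. The cDC2 subset and dendritic cells that form from monocytes share many genes with macrophages, among them the lectin gene Cd209a. In the brain such cells are found mainly in the meninges and choroid plexus, and in brain tumours they can enter the tissue. IRF8 is not private to dendritic cells, since microglia and monocytes depend on it too.

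The genes lie at these GRCm38 positions: Flt3 (ENSMUSG00000042817) at chr5:147330741-147400489 (minus strand), Zbtb46 (ENSMUSG00000027583) at chr2:181387762-181459426 (minus), Batf3 (ENSMUSG00000026630) at chr1:191097847-191108945 (plus), Irf8 (ENSMUSG00000041515) at chr8:120736358-120756694 (plus), Xcr1 (ENSMUSG00000060509) at chr9:123852315-123862029 (minus), Clec9a (ENSMUSG00000046080) at chr6:129408862-129424763 (plus), Itgae (ENSMUSG00000005947) at chr11:73090583-73147446 (plus), Cd209a (ENSMUSG00000031494) at chr8:3743397-3748984 (minus) and Dpp4 (ENSMUSG00000035000) at chr2:62330073-62412231 (minus). Clec9a shares 184 exonic bases with Clec1b on the same strand, and Dpp4 shares 232 with the antisense gene Gm13561, so reads there could count for either gene or neither. Gm13561 had 477 counts over all libraries.

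The 250 bases before the annotated start of 3 genes are shown, those of Xcr1 and Clec9a because these 2 genes had the highest correlation among BMDM libraries, and that of Dpp4 because its window alone among the members held an interferon response element. The sequences are from RefSeq (GRCm38.p6), run 5′ to 3′ on the strand of the gene, and the capitals in Dpp4 mark the element.
Xcr1 (chr9:123862030-123862279, minus strand): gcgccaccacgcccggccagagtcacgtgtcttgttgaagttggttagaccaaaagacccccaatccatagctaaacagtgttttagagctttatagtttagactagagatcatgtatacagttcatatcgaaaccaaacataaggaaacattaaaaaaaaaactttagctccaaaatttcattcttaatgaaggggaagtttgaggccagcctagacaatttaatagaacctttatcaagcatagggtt
Clec9a (chr6:129408612-129408861, plus strand): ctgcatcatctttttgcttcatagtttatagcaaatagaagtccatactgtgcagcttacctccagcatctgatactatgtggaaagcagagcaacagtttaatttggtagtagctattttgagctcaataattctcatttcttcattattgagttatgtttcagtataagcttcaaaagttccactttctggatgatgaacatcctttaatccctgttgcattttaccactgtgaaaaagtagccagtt
Dpp4 (chr2:62412232-62412481, minus strand): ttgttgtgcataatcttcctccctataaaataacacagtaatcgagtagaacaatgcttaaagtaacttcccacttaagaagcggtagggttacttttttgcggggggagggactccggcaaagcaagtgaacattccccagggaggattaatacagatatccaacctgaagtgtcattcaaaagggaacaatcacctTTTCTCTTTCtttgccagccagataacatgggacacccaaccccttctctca

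The element was searched as GAAANNGAAA on both strands, and the match in Dpp4 is its reverse complement, TTTCTCTTTC, with its first base 52 bases before the start. Of 32851 RefSeq upstream windows of the same length, 978 (2.98%) held this element. The AP-1 element TGANTCA was in 6.75% of windows and, of the members, in that of Zbtb46, and the ETS-IRF composite element GGAANNGAAA was in 2.3% of windows and in none of the members'. The Zbtb46 window, chr2:181424389-181424638, lies within the gene span given above and not before it. So do the Batf3 window, chr1:191098164-191098413, and an Irf8 window, chr8:120738389-120738638. In all, 8 of the 9 members matched the promoter table, with 9 windows. The Xcr1 and Clec9a windows had GC contents of 38.8% and 35.6%, and the Dpp4 window 43.6%. A match is a description of the letters and not evidence that a factor binds there.

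Library totals ran between 985423 and 18642747 counts with a median of 11362593, and those of BMDM between 7059127 and 15378802. In 11 libraries the total was under 3000000 or more than 30000 genes were detected. These were tumour-free microglia 2 and 3, blood monocytes 1, 2 and 3, small-stage microglia 1 and 4, large-stage BMDM 2, and the third monocyte library, the third granulocyte library and the first microglia library at day 3 of 5x2 Gy. Results that rest on them are also given without them. Over their summed marker genes, unirradiated BMDM had 931 to 5537 CPM for 6 microglia markers, against 5132 to 12219 in microglia. The 6 markers of recruited macrophages summed to 956 to 2769 CPM in BMDM, to 36.7 to 1880 in microglia and to 4126 to 9186 in inflammatory monocytes, so every monocyte library was above every BMDM library. The 6 monocyte markers summed to 638 to 2633 CPM in BMDM and 5185 to 10967 in inflammatory monocytes, and the 6 granulocyte markers to 6.77 to 63.9 CPM in BMDM and 7678 to 27500 in granulocytes. In libraries made from many cells, fewer cells of a type and less RNA per cell cannot be told apart.

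**Figure D1:**
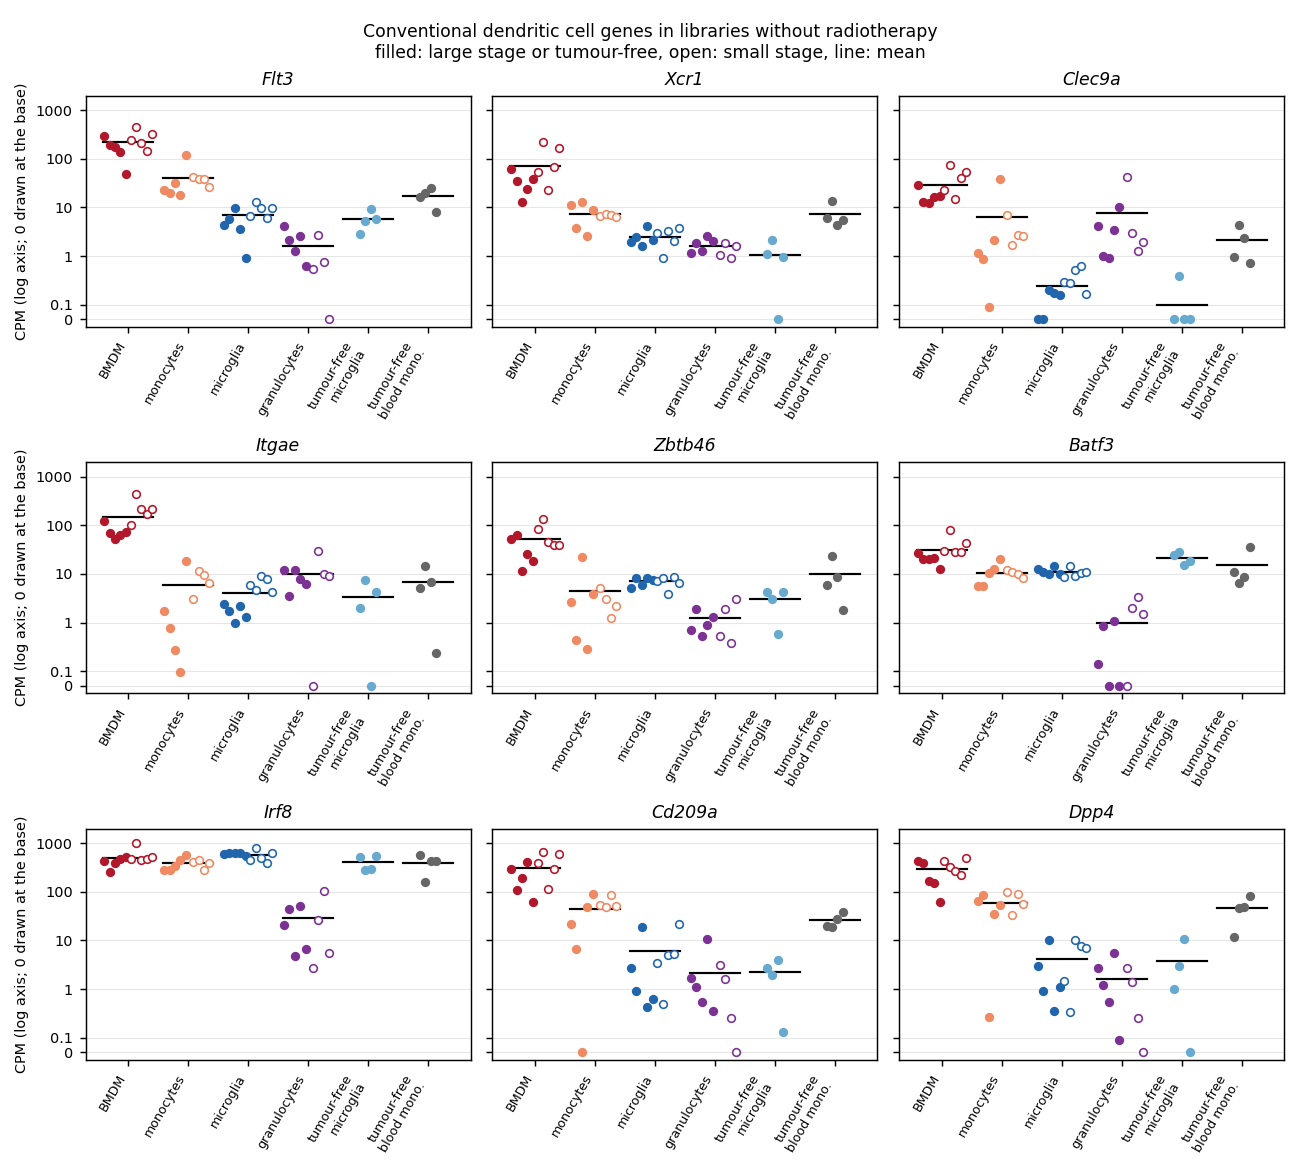
CPM (log axis, 0 at the base) of the 9 genes in each unirradiated or tumour-free library, without those titled 5x2, by population; filled points are large-stage or tumour-free libraries, open points small-stage ones, and lines are means. The BMDM mean is the highest for every gene except Irf8, which ran between 399 and 781 CPM in tumour microglia and between 283 and 559 in tumour-free microglia, and single libraries of other populations reach into the BMDM range, such as 1 granulocyte library with 42.0 CPM of Clec9a.

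The first question the design poses is how macrophages of the metastasis differ from the other myeloid cells beside them and from normal counterparts. Among unirradiated libraries, 8 of the 9 genes were higher in BMDM than in microglia, with 29.9% of 15103 genes called in either direction and 16.1% called higher. Flt3, Xcr1, Clec9a, Itgae, Zbtb46, Cd209a and Dpp4 did not overlap between the 10 BMDM and the 10 microglia libraries. The median log2 fold change of the 9 was 5.03, beside -0.04 for all genes tested. Irf8 was the gene that did not pass the test.

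Flt3, the receptor for the growth factor on which dendritic cell precursors depend, ran between 49.8 and 454 CPM in BMDM with a median of 203, against 0.907 to 12.8 CPM with a median of 6.39 in microglia. Every BMDM library was above every microglia library. Over microglia BMDM were higher by 5.03 ± 0.38 on the log2 scale (SE, adjusted p = 1.61e-08, edgeR's quasi-likelihood test). In inflammatory monocytes of the same tumours Flt3 lay between 18.04 and 120.2 CPM with a median of 32.0, and in granulocytes between 0 and 4.11 with a median of 1.26. Monocytes thus overlapped BMDM, and granulocytes did not. BMDM were higher by 2.52 ± 0.39 on the log2 scale than monocytes (adjusted p = 0.000251) and by 6.89 ± 0.62 than granulocytes (adjusted p = 4.79e-09). Blood monocytes of tumour-free mice had 16.4, 19.9, 25.4 and 8.06 CPM, all below the lowest BMDM library, and BMDM were higher by 3.32 ± 0.51 (adjusted p = 0.00059).

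Zbtb46, the zinc finger factor that separates conventional dendritic cells from monocytes and macrophages, had 11.6 to 137 CPM in BMDM with a median of 42.1. It had 0.286 to 22.3 CPM in monocytes (median 2.66), 3.87 to 8.50 in microglia (median 7.37) and 0.382 to 2.99 in granulocytes (median 0.909). The BMDM range lay above those of microglia and granulocytes and overlapped that of monocytes. BMDM exceeded monocytes by 3.62 ± 0.65 (SE, adjusted p = 0.000921), microglia by 2.78 ± 0.33 (adjusted p = 2.45e-06) and granulocytes by 4.99 ± 0.53 on the log2 scale. In blood monocytes Zbtb46 had 5.93, 23.9, 8.74 and 1.85 CPM, and the library with 23.9 overlapped BMDM. That difference was 1.87 ± 0.66 (adjusted p = 0.0403), and it no longer passed without blood monocytes 1 (adjusted p = 0.0926) or 3 (0.0989), without small-stage BMDM 1 (0.0579) or 2 (0.0608), or without large-stage BMDM 2 (0.0911). With RLE scaling it was 1.36 (adjusted p = 0.141) and with DESeq2 1.33 (adjusted p = 0.103). Without blood monocytes 2, the library at 23.9 CPM, it was 2.89.

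Batf3, the basic leucine zipper factor needed for cDC1 development, had 12.7 to 81.8 CPM in BMDM (median 27.7), against 8.70 to 14.5 in microglia (median 10.7), 5.60 to 20.7 in monocytes (median 10.2) and 0 to 3.31 in granulocytes (median 0.869). Its ranges in BMDM overlapped those of microglia and monocytes at their edges. Its log2 fold change was 1.38 ± 0.20 over microglia (SE, adjusted p = 3.15e-05), 1.52 ± 0.28 over monocytes (adjusted p = 0.000988) and 4.83 ± 0.62 over granulocytes. Against blood monocytes, whose libraries had 11.2, 6.42, 8.64 and 36.2 CPM, it was 0.77 ± 0.39 with an adjusted p of 0.138. Without blood monocytes 4, the library at 36.2 CPM, it was 1.63 with an adjusted p of 0.00341. That fit keeps only blood monocytes 1, 2 and 3, which are all among the libraries of low depth or many detected genes.

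Irf8, the interferon regulatory factor that cDC1, microglia and monocytes all use, was the exception. It had 255 to 1023 CPM in BMDM (median 472), 279 to 587 in monocytes (median 392), 399 to 781 in microglia (median 615) and 2.66 to 104 in granulocytes (median 20.4). Ranges in BMDM, monocytes and microglia overlapped almost throughout, and only granulocytes lay apart, below them. BMDM exceeded granulocytes by 3.83 ± 0.57 on the log2 scale (SE, adjusted p = 7.08e-06). The log2 fold change was -0.26 ± 0.15 over microglia (adjusted p = 0.215), 0.40 ± 0.19 over monocytes (adjusted p = 0.174) and 0.09 ± 0.31 over blood monocytes (adjusted p = 0.860, and below 0 with RLE scaling). Without small-stage BMDM 2, the library at 1023 CPM, Irf8 was lower in BMDM than in microglia, with a log2 fold change of -0.41 and an adjusted p of 0.0102.

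Xcr1, the receptor for the chemokine XCL1 and the most restricted surface marker of cDC1, had 13.2 to 224 CPM in BMDM with a median of 45.8. Monocytes had 2.58 to 12.8 CPM (median 6.84), microglia 0.899 to 4.08 (median 2.29) and granulocytes 0.892 to 2.55 (median 1.62). No library of these populations reached the lowest BMDM library, and in blood monocytes, at 5.93, 13.8, 4.42 and 5.40 CPM, 1 library did. BMDM were higher on the log2 scale by 3.11 ± 0.42 than monocytes (SE, adjusted p = 7.53e-05), by 4.58 ± 0.41 than microglia (adjusted p = 8.39e-08), by 5.03 ± 0.50 than granulocytes and by 2.71 ± 0.62 than blood monocytes (adjusted p = 0.00954).

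Clec9a, a lectin that binds the actin of dead cells, had 12.2 to 76.0 CPM in BMDM with a median of 20.04, against 0 to 0.619 CPM in microglia with a median of 0.187. Its fold over microglia was the largest of the 9, at 6.95 ± 0.42 (SE, adjusted p = 2.53e-09). Monocytes had 0.0898 to 38.3 CPM (median 2.10) and granulocytes 0.903 to 42.0 (median 3.04), and in each of them 1 library exceeded the BMDM median. These were large-stage monocytes 5, with 504 reads, and small-stage granulocytes 1, with 79 reads in a library of 3805740. Against monocytes the log2 fold change of BMDM was 2.35 ± 0.70 (adjusted p = 0.0301), and 3.86 without large-stage monocytes 5. It did not pass without small-stage BMDM 2 (adjusted p = 0.0524) or without small-stage monocytes 2, 3 or 4 (0.0713, 0.0712 and 0.0652). Against granulocytes it was 1.78 ± 0.60 (adjusted p = 0.0149) and 3.10 without small-stage granulocytes 1, but 0.54 (adjusted p = 0.568) with RLE scaling and 0.48 (adjusted p = 0.594) with DESeq2. Against blood monocytes, at 0.949, 4.41, 2.32 and 0.725 CPM, it was 3.34 ± 0.61 (adjusted p = 0.00222). Clec1b, the overlapping gene, averaged 1.93 CPM in small-stage BMDM, 4.36 in small-stage granulocytes and 11.9 in blood monocytes.

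Itgae, the alpha E integrin chain known as CD103, had 51.3 to 434 CPM in BMDM with a median of 113. It had 0.0954 to 18.9 CPM in monocytes (median 3.01), 1.00 to 9.22 in microglia (median 3.35) and 0 to 30.1 in granulocytes (median 9.10). The lowest BMDM library was above every library of those populations and above the blood monocytes, at 5.22, 14.8, 6.85 and 0.242 CPM. The log2 fold change of BMDM was 4.56 ± 0.67 over monocytes (SE, adjusted p = 0.000153), 5.28 ± 0.29 over microglia (adjusted p = 5.91e-10), 3.42 ± 0.52 over granulocytes and 3.91 ± 0.74 over blood monocytes (adjusted p = 0.00288).

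Cd209a, a mouse relative of the lectin DC-SIGN found on monocyte-derived dendritic cells and some cDC2, had 62.1 to 655 CPM in BMDM with a median of 294. Monocytes ran between 0 and 90.9 CPM (median 48.9), microglia between 0.434 and 21.7 (median 3.07) and granulocytes between 0 and 10.55 (median 1.12). Only the upper monocyte libraries reached the lower BMDM libraries. On the log2 scale BMDM exceeded monocytes by 2.78 ± 0.63 (SE, adjusted p = 0.00549), microglia by 5.68 ± 0.72 (adjusted p = 5.34e-06), granulocytes by 7.18 ± 0.80 and blood monocytes, at 19.5, 18.9, 28.2 and 38.8 CPM, by 3.27 ± 0.54 (adjusted p = 0.00116).

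Dpp4, the dipeptidyl peptidase CD26 that marks part of the dendritic cell lineage and many lymphocytes, had 60.6 to 488 CPM in BMDM with a median of 297. Monocytes had 0.270 to 101 CPM (median 56.9), microglia 0.346 to 10.4 (median 2.22) and granulocytes 0 to 5.64 (median 1.24). BMDM overlapped monocytes and no other of these populations. The log2 fold change of BMDM was 2.41 ± 0.54 over monocytes (SE, adjusted p = 0.0051), 6.16 ± 0.63 over microglia (adjusted p = 4.07e-07), 7.53 ± 0.75 over granulocytes and 2.42 ± 0.54 over blood monocytes (adjusted p = 0.00787), which had 11.6, 46.3, 47.7 and 81.0 CPM.

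In counts, 8 of 9 genes were higher in BMDM than in inflammatory monocytes, where 13.8% of 14939 genes were called, 7.22% higher and 6.59% lower, with a median of 2.52 for the 9 and 0.04 for all genes. All 9 were higher than in granulocytes, where 54.2% of 15331 genes were called and 30.5% higher, with medians of 4.99 for the 9 and 0.22 for all genes. Against blood monocytes 7 of 9 were higher, with 32.8% of 19778 genes called, 9.59% higher and 23.2% lower, and medians of 2.71 and -0.39. The groups did not overlap for 2 genes against monocytes, 8 against granulocytes and 4 against blood monocytes. The share of all genes without overlap was not counted in any of the 4 comparisons, that with microglia included. These numbers therefore do not set the members apart from other genes. The 4 comparisons share the BMDM libraries. Of the 4 blood monocyte libraries 3 are among those of low depth or many detected genes, and without all such libraries, which leaves 1 blood library that is assumed to vary like the others, 4 genes passed, while Xcr1 (3.49, adjusted p = 0.165), Cd209a (3.03, adjusted p = 0.163) and Dpp4 (1.73, adjusted p = 0.311) did not. Marker genes of other cells differed beside these counts. The NK cell markers, of which 5 of 6 were measured, summed to 0 to 120.6 CPM in BMDM, against 2823, 477, 1232 and 150 CPM in blood monocytes 1 to 4, and the 5 T cell markers to 0.644 to 12.6 CPM in BMDM, against 281, 86.7, 180 and 10.2 CPM in blood monocytes. The 6 monocyte markers summed to 1843, 804, 2518 and 8399 CPM in the 4 blood libraries. No measured marker of these 3 lists was at 0 in all blood libraries, and the part of these cells in the result was not tested.

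**Figure D2:**
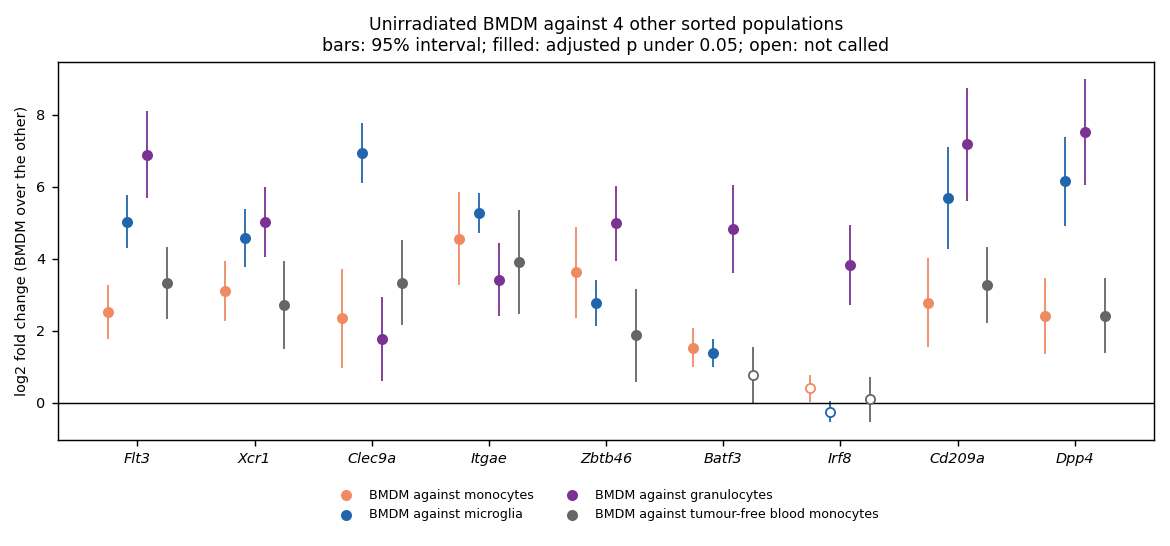
Log2 fold change of BMDM over microglia, inflammatory monocytes, granulocytes and blood monocytes for the 9 genes, with 95% intervals; filled points have an adjusted p under 0.05 and open points do not. Irf8 is called over granulocytes only, and Batf3 is not called over blood monocytes; Clec9a reaches 6.95 over microglia and 1.78 over granulocytes.

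Divided by exonic length, the levels can be set against each other within BMDM. On the RPKM scale Cd209a averaged 198 ± 130 (SD, n = 10 unirradiated libraries), Irf8 71.0 ± 28.2, Dpp4 46.9 ± 22.7, Flt3 35.9 ± 18.4 and Itgae 33.2 ± 25.4. Batf3 averaged 19.6 ± 12.2, Xcr1 16.0 ± 15.7, Clec9a 8.95 ± 6.40 and Zbtb46 6.05 ± 4.31 RPKM. Every other member except Irf8 had a mean more than 1 SD of Cd209a below the mean of that lectin gene. The means of Dpp4, Flt3 and Itgae lay within 1 SD of each other.

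Inflammatory monocytes of the tumour were then set against blood monocytes of tumour-free mice, the normal counterpart named in the design text. None of the 9 genes passed edgeR's test, while 26.3% of 15714 genes were called. Their median log2 fold change was -0.39, beside -0.16 for all genes (-0.63 and -0.41 with RLE scaling). None had an unadjusted p under 0.05, against 6224 of the 15714 genes, and DESeq2 called 1, Zbtb46 (-2.35, adjusted p = 0.0421), beside 5590 of the 15714 genes. Zbtb46 had 0.286 to 22.3 CPM in tumour monocytes, with the highest value in large-stage library 3, and the difference was -1.91 ± 0.92 (SE, adjusted p = 0.134). Without that library it was -2.79 (adjusted p = 0.0162), and without blood monocytes 4 it was -2.15 (adjusted p = 0.0364). That last fit keeps only blood monocytes 1, 2 and 3, which are all among the libraries of low depth or many detected genes. The values of the 9 genes in this comparison are not given without those libraries. Flt3 differed by 0.70 ± 0.51, and by 0.93 with an adjusted p of 0.0243 when low counts were not filtered. Beside these values the NK cell markers summed to 0.0898 to 43.6 CPM in tumour monocytes, against 150 to 2823 CPM in blood monocytes, and the T cell markers to 0.0898 to 7.26 CPM, against 10.2 to 281. Neither list overlapped between the groups, and their part in the result was not tested.

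Microglia of the metastasis were compared with microglia of tumour-free brains. Batf3 had 8.70, 14.3, 9.16, 10.7 and 10.8 CPM in small-stage microglia and 12.5, 11.04, 9.84, 14.5 and 10.1 CPM in large-stage microglia, against 24.8, 27.7, 15.5 and 18.9 CPM in tumour-free microglia. Every tumour library was below every tumour-free library. It differed by -1.07 ± 0.29 for the small stage (SE, adjusted p = 0.0127) and -1.09 ± 0.29 for the large stage (adjusted p = 0.00696). Neither passed without the libraries of low depth or many detected genes (-0.95 with an adjusted p of 0.125, and -0.93 with 0.0592), and the small-stage difference did not pass without tumour-free microglia 2 (-0.84, adjusted p = 0.0579). Nor did either pass without a filter on low counts (adjusted p = 0.0897 and 0.0574) or with the compared groups alone (0.153 and 0.0697). Tumour-free microglia titled 5x2 had 12.4 to 19.3 CPM at D3 and 13.2 to 42.5 at D5, so that their lower values overlapped those of tumour microglia. Beside these values the 8 markers of astrocytes, neurons and oligodendrocytes summed to 162 to 335 CPM in small-stage and 216 to 361 CPM in large-stage microglia, against 636 to 1248 CPM in tumour-free microglia, with no overlap. The 6 recruited macrophage markers summed to 36.7 to 352 CPM at the small and 183 to 1880 CPM at the large stage, against 37.2 to 100.2 CPM in tumour-free microglia. No marker of either list was at 0 throughout a group, and their part in the Batf3 and Irf8 results was not tested.

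Of the 8 genes tested in small-stage microglia, Batf3 was the only 1 called, beside 15.4% of 19754 genes, 7.55% higher and 7.82% lower, and the median of the 8 was 0.70 beside -0.03 for all genes (0.46 and -0.21 with RLE scaling). Clec9a, at 0, 0.387, 0 and 0 CPM in tumour-free microglia and 0.619 or less in tumour microglia, did not pass the filter on low counts. In large-stage microglia Irf8 was also called, at 606, 642, 632, 636 and 545 CPM against 518, 283, 289 and 559 CPM in tumour-free microglia. Most large-stage libraries were above all 4 tumour-free libraries, and library 5 was not. The difference was 0.45 ± 0.17 (SE, adjusted p = 0.0487), and 31.9% of genes were called in that comparison, with a median of 0.06 for the 8 genes and -0.26 for all genes (-0.24 and -0.51 with RLE scaling). Tumour-free microglia titled 5x2 had 488 to 626 CPM of Irf8 at D3 and 462 to 610 at D5, which overlapped the large-stage range. With RLE scaling the Irf8 difference was 0.21 (adjusted p = 0.283), with DESeq2 0.21 (adjusted p = 0.246) and without the libraries of low depth or many detected genes 0.17 (adjusted p = 0.603). It did not pass without a filter either (adjusted p = 0.124) or with the compared groups alone (0.311). The Irf8 call was lost without tumour-free microglia 2 (0.35, adjusted p = 0.164) or 3 (0.34, adjusted p = 0.169), the libraries at 283 and 289 CPM, and without any 1 of large-stage microglia 1 to 4 (adjusted p of 0.0733, 0.0866, 0.0727 and 0.0795). Zbtb46 differed by 1.11 ± 0.41 in small-stage microglia (adjusted p = 0.0636), and its adjusted p was 0.0419 without small-stage microglia 3.

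The next comparison asks how BMDM differ between large and small metastases. All 9 genes had a log2 fold change below 0 in large-stage BMDM, with TMM and with RLE scaling, but none passed edgeR's test after adjustment, and neither did any other of the 15874 genes tested (0.0% called). The median was -0.95 for the 9 genes and 0.04 for all genes. An unadjusted p under 0.05 was reached by 3 of the 9, against 955 of 15874 genes, and DESeq2 called none of the 9 and 9 genes in all. The smallest adjusted p among the 9 was 0.734.

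Xcr1 had 62.6, 35.5, 13.2, 23.8 and 37.8 CPM in large-stage BMDM, against 53.9, 224, 22.8, 68.9 and 169.6 CPM in small-stage BMDM. The upper 3 small-stage libraries were above all large-stage libraries, and the others overlapped. The difference was -1.60 ± 0.69 on the log2 scale (SE, adjusted p = 0.781). Itgae had 125, 70.4, 51.3, 64.7 and 74.3 CPM in large-stage BMDM, against 101, 434, 217, 169 and 212 CPM in small-stage BMDM, a difference of -1.52 ± 0.42 (adjusted p = 0.734). Large-stage library 1 overlapped small-stage library 1, and the remaining libraries were apart. Batf3 had 27.3, 20.2, 20.7, 21.6 and 12.7 CPM in large-stage BMDM, against 29.5, 81.8, 28.1, 28.7 and 43.0 CPM in small-stage BMDM, a difference of -1.01 ± 0.35 (adjusted p = 0.778). It was the only 1 of the 9 whose groups did not overlap, and how many of all genes did so was not counted.

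Of the other genes, Clec9a had 28.5, 13.1, 12.2, 16.5 and 17.5 CPM in large-stage BMDM, against 22.5, 76.0, 14.6, 40.3 and 53.3 CPM in small-stage BMDM (-1.20). The log2 differences of Zbtb46, Cd209a, Flt3, Irf8 and Dpp4 were -0.95, -0.91, -0.63, -0.48 and -0.43. Small-stage BMDM 2 had the highest value of the 24 BMDM libraries for 8 of the 9 genes, and without it the median of the 9 was -0.61. Markers of other cells had the following values beside these genes. The NK cell markers, of which 5 of 6 were measured, summed to 1.71, 25.0, 0, 2.75 and 0.387 CPM in large-stage BMDM, against 40.9, 120.6, 0.336, 17.7 and 69.5 CPM in small-stage BMDM, and Klra8 was at 0 in all large-stage libraries. The 6 microglia markers summed to 1873, 931, 2999, 2619 and 5537 CPM in large-stage BMDM, against 1329, 1005, 2917, 3447 and 1427 CPM in small-stage BMDM. Their part in the result was not tested.

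In the other populations the same comparison gave medians of 0.09 in monocytes, -0.46 in microglia and -0.45 in granulocytes, with 0.0%, 0.0% and 0.0141% of genes called. None of the members tested was called by edgeR or by DESeq2 in any of them, though DESeq2 gave only 2 members an adjusted p in granulocytes, and 0, 1 and 1 had an unadjusted p under 0.05. Itgae in microglia had 2.42, 1.77, 1.00, 2.17 and 1.28 CPM at the large stage, against 6.075, 4.71, 9.22, 7.70 and 4.28 CPM at the small stage, and these groups did not overlap. The difference was -2.04 ± 0.70 (SE, adjusted p = 0.37). How many of all genes did not overlap between these groups was not counted.

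**Figure D3:**
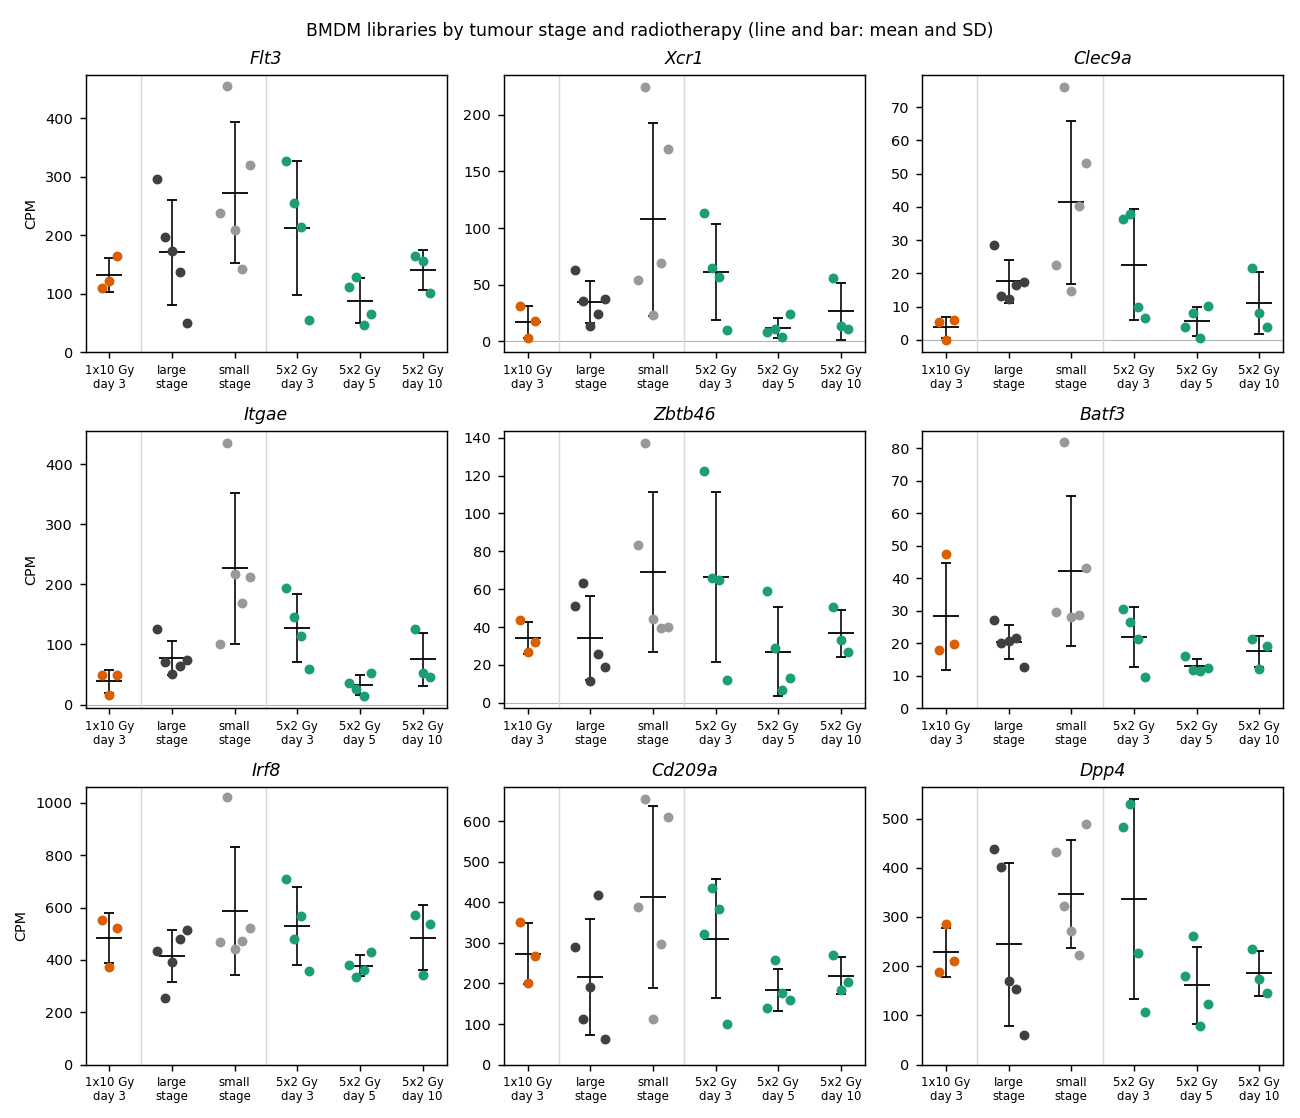
CPM of the 9 genes in each of the 24 BMDM libraries, by condition: 1x10 Gy day 3, large stage, small stage, and days 3, 5 and 10 of 5x2 Gy; the line and bar are the mean and SD. Itgae averages 227 CPM in small-stage BMDM, 77.2 in large-stage BMDM and 32.7 at day 5 of 5x2 Gy.

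The radiotherapy groups address how the cells change after irradiation; being without a stage, each was set against the average of both unirradiated stages of its population. In BMDM no gene of the 9 passed edgeR's test after adjustment in any of the 4 irradiated groups, where the share of all genes called was 0.0% at day 3, 0.0% at day 5 and 0.0% at day 10 of 5x2 Gy and 0.0063% at day 3 after 1x10 Gy. The medians of the 9 were -0.06 at day 3, -1.23 at day 5 and -0.72 at day 10 of 5x2 Gy, and -0.57 after 1x10 Gy. All 9 fold changes were below 0 at day 5, at day 10 and after 1x10 Gy with either scaling, and 5 of 9 at day 3 with TMM and 6 with RLE. Before adjustment, 0, 5 and 1 of the 9 had a p under 0.05 at days 3, 5 and 10 and 3 after 1x10 Gy, against 930, 1125, 999 and 1483 genes. DESeq2 called 25, 53, 6 and 64 genes in these 4 comparisons. All 4 share the unirradiated libraries.

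Itgae averaged 227 ± 125 CPM in small-stage and 77.2 ± 28.3 in large-stage unirradiated BMDM, 128 ± 56.7 at day 3, 32.7 ± 16.2 at day 5 and 75.1 ± 44.4 at day 10 of 5x2 Gy (SD, n = 5, 5, 4, 4 and 3). Its libraries at day 5 had 36.4, 26.7, 14.7 and 53.0 CPM, of which 3 were below every unirradiated library. The log2 difference at day 5 was -2.06 ± 0.44 (SE, adjusted p = 0.258 with edgeR), and DESeq2 called it (adjusted p = 0.000335), as did edgeR against the small stage alone (-2.82, adjusted p = 0.0484). Against the large stage alone it was -1.29 (adjusted p = 0.616). After 1x10 Gy the libraries had 48.9, 16.6 and 49.9 CPM, all below the unirradiated ones, with a difference of -1.83 ± 0.49 (adjusted p = 0.411 with edgeR and 0.0154 with DESeq2).

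Xcr1 averaged 107.9 ± 85.3 CPM at the small and 34.6 ± 18.5 at the large stage, 61.1 ± 42.3 at day 3, 11.55 ± 8.66 at day 5 and 26.6 ± 25.0 at day 10 of 5x2 Gy. Its 4 libraries at day 5 had 7.97, 10.6, 3.77 and 23.8 CPM, and 3 of them were below the lowest unirradiated BMDM library. The difference was -2.44 ± 0.74 (SE, adjusted p = 0.481 with edgeR and 0.0271 with DESeq2). Clec9a had 3.78, 8.04, 0.412 and 10.2 CPM at day 5, all below the unirradiated range, with a difference of -2.30 ± 0.75 (adjusted p = 0.552). After 1x10 Gy it had 5.41, 0.0942 and 5.85 CPM, again all below that range, with a difference of -2.86 ± 0.89 (adjusted p = 0.458 with edgeR and 0.0257 with DESeq2). Xcr1 after 1x10 Gy had 31.0, 2.54 and 17.7 CPM and differed by -1.89 ± 0.80 (adjusted p = 0.524).

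Flt3 had 112, 129, 45.8 and 65.6 CPM at day 5, of which only the third library was below the unirradiated range, and Batf3 had 16.2, 11.9, 11.46 and 12.3 CPM, of which the last 3 were. The differences were -1.34 ± 0.43 for Flt3 (SE, adjusted p = 0.533) and -1.23 ± 0.35 for Batf3 (adjusted p = 0.40). Dpp4 had 179, 261, 78.9 and 124 CPM at day 5, within its unirradiated range of 60.6 to 488 CPM. Beside these values, the NK markers summed to 0.0686 to 1.61 CPM at day 5, with Ncr1, Eomes, Gzma and Klra8 at 0 in all 4 libraries. In unirradiated BMDM they summed to 0 to 120.6 CPM. The 6 monocyte markers summed to 1382 to 4277 CPM at day 5 and to 638 to 2633 CPM in unirradiated BMDM. The part of these lists in the result was not tested.

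In inflammatory monocytes the medians of the 9 genes were -0.56 at day 3, -0.77 at day 5 and -0.64 at day 10 of 5x2 Gy, and -1.50 after 1x10 Gy, with 0 genes of the 9 called by edgeR (0.0% of all genes in each) and 3, 2, 0 and 4 with an unadjusted p under 0.05. Such a p was reached by 600, 1475, 698 and 1114 of all 14567 genes. DESeq2 called Itgae at day 5 (-3.79, adjusted p = 0.0133) and Xcr1 after 1x10 Gy (-2.14, adjusted p = 0.0319), among 188 and 99 genes called there. Itgae had 0.362, 0.520, 0 and 0.786 CPM in monocytes at day 5, against 0.0954 to 18.9 CPM in unirradiated monocytes, so that the groups overlapped near 0. In microglia the medians were 0.13, -0.05 and 0.22 at days 3, 5 and 10 of 5x2 Gy and -0.03 after 1x10 Gy, where 0.0607%, 0.0354%, 0.00506% and 0.101% of genes were called. None of the 8 members tested there, which leave out Clec9a, was called by edgeR or by DESeq2, and 1, 0, 0 and 1 had an unadjusted p under 0.05, against 357, 539, 966 and 1603 of 19754 genes. In granulocytes the medians were -1.80, -0.76 and 0.79 at days 3, 5 and 10 and -1.04 after 1x10 Gy (-1.95, -1.58, 0.63 and -1.35 with RLE scaling), with 0 genes of the 9 called by edgeR (0.0% of all genes in each) and 1, 1, 0 and 0 with an unadjusted p under 0.05. Of all 14230 genes, 412, 991, 472 and 857 had one. In granulocytes DESeq2 called Irf8 at day 5 (adjusted p = 0.000296), among 180 genes called, where edgeR gave -3.76 ± 0.96 (SE, adjusted p = 0.305). Whether the response to irradiation differed between BMDM and monocytes was tested for each gene and schedule. Of these 36 interaction tests 0 passed with edgeR (smallest adjusted p = 0.875) or with DESeq2, and 2 had an unadjusted p under 0.05, Itgae at day 3 and Xcr1 at day 5 of 5x2 Gy. At those 2 schedules 209 and 942 of 16976 genes had one.

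Over all 28 groups, the 6 BMDM groups took the 6 highest means for Flt3, Xcr1, Itgae, Zbtb46, Cd209a and Dpp4. For Flt3 the lowest BMDM group, day 5 of 5x2 Gy, averaged 88.0 CPM and the highest other group, large-stage monocytes, 42.6. The corresponding means were 11.55 and 7.84 CPM for Xcr1, 32.7 and 12.3 for Itgae, 27.002 and 10.1 for Zbtb46, 184 and 81.7 for Cd209a, and 161 and 72.6 for Dpp4. The highest other group was large-stage monocytes for Xcr1, small-stage granulocytes for Itgae, blood monocytes for Zbtb46, and irradiated monocytes for Cd209a and Dpp4. Small-stage BMDM held the highest mean for each of these 6 genes, and neighbours in the order overlapped throughout, so no single step in it exceeded the spread between libraries.

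The remaining 3 genes were ordered differently. For Clec9a 4 BMDM groups were among the top 6, joined by small-stage granulocytes at 12.1 CPM and large-stage monocytes at 8.50, each of which rests on the 1 library named above. For Batf3 4 BMDM groups were among the top 6, joined by tumour-free microglia at 21.7 CPM and tumour-free microglia titled 5x2 D5 at 23.3. That last mean rests on 1 library at 42.5 CPM, since the other 2 had 13.2 and 14.2. For Irf8 the 5 highest means were all of tumour microglia, led by day 3 after 1x10 Gy at 806 CPM, and small-stage BMDM followed at 586. Of the 27 pairs of neighbours, 1 for Batf3 and 2 for Irf8 did not overlap.

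**Figure D4:**
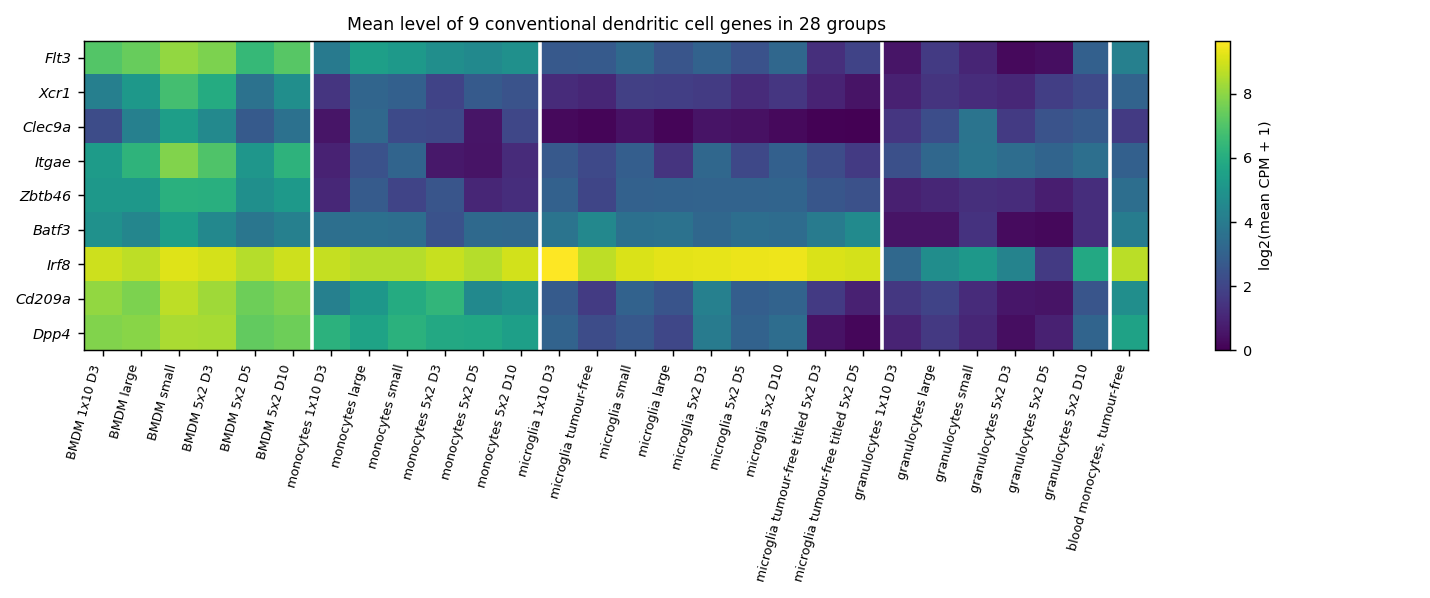
Heat map of log2(mean CPM + 1) for the 9 genes (rows) in the 28 groups (columns). The BMDM columns are the highest for Flt3, Xcr1, Itgae, Zbtb46, Cd209a and Dpp4, while Irf8 is high in all populations but granulocytes.

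Among BMDM libraries the 9 genes spread unequally. Between the lowest and the highest of the 24 libraries Xcr1 differed 88.3-fold, Itgae 29.5-fold and Zbtb46 20.2-fold. Cd209a differed 10.6-fold, Flt3 9.91-fold, Dpp4 8.76-fold, Batf3 8.62-fold and Irf8 4.02-fold. The lowest Clec9a and Xcr1 values were both in the second library after 1x10 Gy, at 0.0942 and 2.54 CPM, and the highest both in small-stage BMDM 2, at 76.0 and 224 CPM. The lowest Clec9a value was 1 read, so no fold is given for that gene.

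How the genes varied together was examined over the 10 unirradiated BMDM libraries, on log2(CPM + 1), as 36 pairwise correlations with permutation tests. Of the 36, 35 were positive, and the median Pearson r was 0.679. After Benjamini-Hochberg adjustment over the 36, 10 pairs passed on Pearson's r and 1 on Spearman's rho. That pair was Xcr1 with Clec9a, with r = 0.952 (permutation p = 1e-05, the smallest the permutations can give, adjusted p = 0.00036) and rho = 0.964 (permutation p = 3e-05, adjusted p = 0.00108). Without the 2 libraries farthest from the median of Xcr1 the r was 0.856, and with the stage means subtracted it was 0.928. Leaving out each library in turn gave 0.923 to 0.973.

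Flt3 with Dpp4 followed at r = 0.879 (permutation test, adjusted p = 0.0178; rho = 0.842, adjusted p = 0.0578), with r = 0.872 without the 2 farthest libraries. Itgae with Batf3 had r = 0.862 (permutation test, adjusted p = 0.0173; rho = 0.770, adjusted p = 0.0816) and 0.755 without them. Flt3 with Batf3 had r = 0.853 (permutation test, adjusted p = 0.0219; rho = 0.758, adjusted p = 0.0816) and 0.646 without them. Clec9a with Batf3 had r = 0.831 (permutation test, adjusted p = 0.0173, with rho = 0.770 and adjusted p = 0.0816) and 0.465 without the 2 farthest libraries. Leaving out each library in turn gave 0.689 to 0.885 for that pair. Dropping the farthest libraries narrows the range, so a lower r does not by itself show that a relation rests on them. Irf8 with Dpp4 was the 1 negative pair, at -0.0694. All these libraries come from 1 kind of sorted cells, and the part of differing cell shares in the correlations was not tested.

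**Figure D5:**
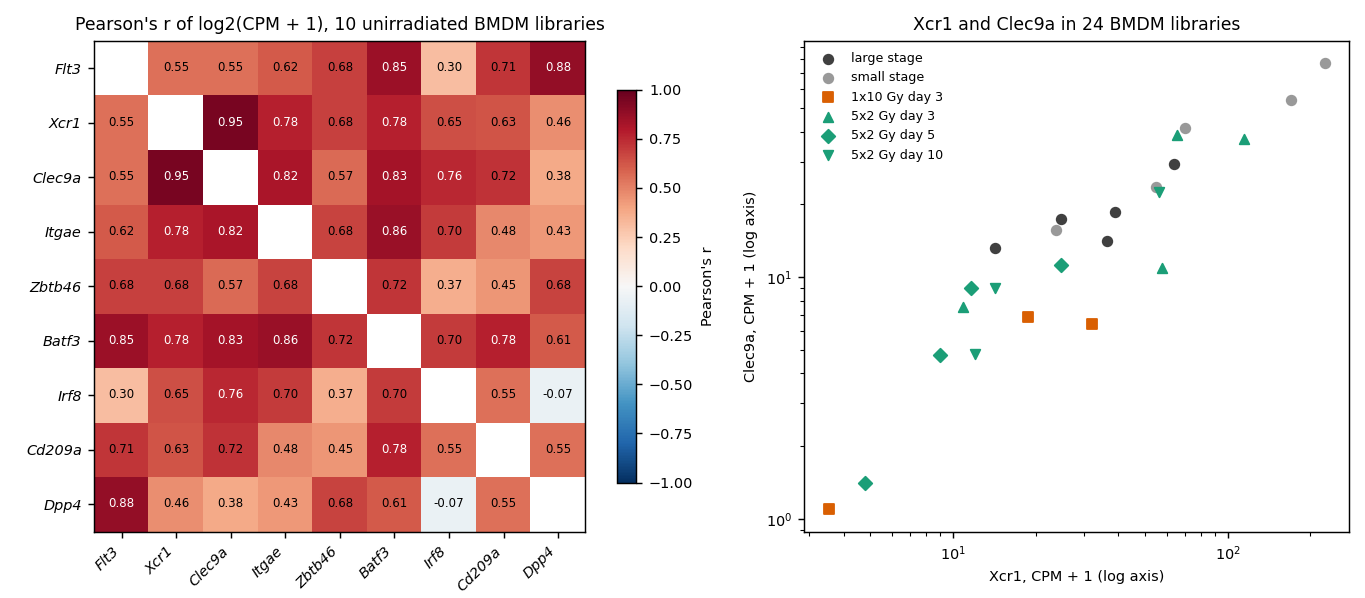
Left, Pearson r of log2(CPM + 1) for each pair of the 9 genes over the 10 unirradiated BMDM libraries. Right, Clec9a against Xcr1 (CPM + 1, log axes) in all 24 BMDM libraries, where libraries low in one gene are low in the other; the unirradiated libraries have r = 0.952.

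The ratio of Clec9a to Xcr1 reads, summed over the libraries of a group, was below 1 in every BMDM group. It was 0.505 in large-stage and 0.387 in small-stage BMDM, 0.363, 0.477 and 0.4202 at days 3, 5 and 10 of 5x2 Gy, and 0.228 after 1x10 Gy. In other populations it was 1.23 and 0.509 in large- and small-stage monocytes, 2.60 and 3.45 in large- and small-stage granulocytes and 0.0455 and 0.145 in large- and small-stage microglia. In large-stage monocytes single libraries ranged between 0.00704 and 4.27 with a median of 0.227, and library 5 gave 504 of the 549 Clec9a reads. In small-stage granulocytes they ranged between 1.23 and 39.5 with a median of 1.53, and library 1 gave 79 of the 131 Clec9a reads. Outside BMDM the sums are small, such as 7 Clec9a reads in the 5 large-stage microglia libraries, so these ratios carry a large counting error.

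Genes with the most similar pattern were found over the 28 group means, by Pearson correlation of log2(mean CPM + 1), as a description. Among the members themselves the closest were Flt3 with Cd209a (0.975), Cd209a with Dpp4 (0.973) and Flt3 with Dpp4 (0.965). The other genes named are the nearest outside the 9 members, among 15726 genes with at least 5 CPM in their highest group. Outside the members, nearest to Flt3 were P2ry10 (0.966), Clec10a (0.958) and Kmo (0.951). Clec10a, a galactose-binding lectin gene, and Kmo, a kynurenine pathway enzyme gene, were also among the 3 nearest non-members to Cd209a (0.974 and 0.966) and to Dpp4 (both 0.986). Nearest to Xcr1 were Tlr11 (0.952), Il2ra (0.949) and Lad1 (0.947), and to Itgae Epcam (0.913), Tnfrsf4 (0.90) and Gcsam (0.890). Clec9a was nearest to Traf1 (0.844), Tnfrsf18 (0.836) and Ly75 (0.834), lower than the best such match of any other member. Zbtb46 was nearest to Snx22 (0.943), H2-Oa (0.932) and Serpinb6b (0.923), and Batf3 to Prr5 (0.952), Mri1 (0.949) and Nipsnap1 (0.946). Irf8 was nearest to Blmh (0.984), Ccdc50 (0.983) and Plxnb2 (0.982).

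Other genes of the lineage were read in 4 lists drawn up from general knowledge, but with earlier results of these data known. Their counts are therefore a description and not independent support. Of 12 further cDC1 genes, 11 were tested against microglia, and 9 were higher and 2 lower in BMDM, with a median of 3.86, where 16.1% of all genes were called higher and 13.8% lower. Gcsam (7.07 ± 0.76, SE), Hepacam2 (7.03 ± 0.71), Cd24a (6.23 ± 0.50) and Snx22 (3.86 ± 0.26) were higher, while the adhesion gene Cadm1 (-0.58) and the receptor gene Tlr3 (-0.87) were lower. Over monocytes 11 of 12 tested genes were higher and 1 lower, with a median of 1.60, where 7.22% of all genes were called higher and 6.59% lower. There Gcsam (6.61), Snx22 (4.49), Ly75 (3.91) and Cadm1 (1.78) were higher and Cd8a (-3.82) was lower. Cadm1 therefore stood on opposite sides of the microglia and monocyte comparisons.

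Of 12 further genes of cDC2 and monocyte-derived dendritic cells, 8 were higher and 1 lower than in microglia (median 1.51), beside 29.9% of all genes called, and 5 were higher and 2 lower than in monocytes (median 0.58), beside 13.8%. The lectin genes Clec10a and Mgl2 were higher in BMDM over microglia (5.24 and 4.42) and over monocytes (1.79 and 3.62), and Ltb was higher over microglia (3.97). Sirpa, a receptor for CD47, was lower than in microglia (-1.08), and Clec4a2 (-1.01) and Notch2 (-0.92) were lower than in monocytes. Of 19 core genes of conventional dendritic cells, 18 were tested, and 17 were higher and 0 lower than in microglia (median 4.39, with 16.1% of all genes called higher), among them Spint2 (5.53), Btla (5.52), Traf1 (5.00) and Jaml (4.50). Over monocytes 9 of the 18 were higher and 2 lower (median 1.39, with 13.8% of all genes called). The stem cell factor receptor gene Kit (5.43), Btla (3.20), P2ry10 (3.13) and Cbfa2t3 (1.82) were higher, and Runx3 (-1.01) and Jaml (-0.71) were lower.

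Of the 12 genes in the list of development factors and the FLT3 ligand, 3 were higher and 1 lower in BMDM than in microglia (median 0.26), a share near the 29.9% of all genes called there. The higher ones were Nfil3 (1.92), Relb (0.76) and Etv6 (0.45), and Ikzf1 (-0.64) was the lower one. Over monocytes 1 was higher and 3 lower (median -0.29, beside 13.8% of all genes called), with Relb at 0.93, Zeb2 at -0.76, Nfil3 at -0.74 and the receptor gene Csf2ra at -0.59. Over granulocytes 1 was higher and 6 lower (median -0.88), Spi1 (-2.16), Bcl6 (-1.82), Stat3 (-1.52) and Csf2rb (-1.49) among them, a share near the 54.2% of all genes called there. Over blood monocytes 2 were higher and 2 lower (median 0.48), near the 32.8% of all genes called. Relb (1.98) and Bcl6 were higher and Ikzf1 (-0.97) lower. Flt3l, which encodes the ligand of FLT3, was the other lower gene there (-2.19), and it was also lower in tumour monocytes than in blood monocytes (-1.90 ± 0.45, SE, adjusted p = 0.00777). The NK cell marker sums given above were also below those of every blood monocyte library in both tumour populations. The T cell sums overlapped for BMDM and not for tumour monocytes. The part of both marker lists in the Flt3l difference was not tested. Neither the Flt3l differences nor the list counts over blood monocytes were tested without the blood libraries of low depth or many detected genes.

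Over granulocytes 7 further cDC1 genes were higher and 2 lower (median 3.52), and over blood monocytes 8 were higher and 0 lower (median 2.05). Of all genes 54.2% were called in the granulocyte comparison, 30.5% higher and 23.7% lower, and 32.8% in that with blood monocytes, 9.59% higher and 23.2% lower. The genes of cDC2 and monocyte-derived cells counted 6 higher and 5 lower over granulocytes (median 1.55), and 5 higher and 1 lower over blood monocytes (median 1.11). Core genes were higher for 14 and lower for 1 of 18 over granulocytes (median 4.30), and higher for 7 and lower for 1 over blood monocytes (median 0.38).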

How the data were processed

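The deposited table holds raw counts, whole numbers of reads per gene and library, made by the authors and used as deposited. Per the submitters' processing notes, the build was GRCm38, and HTSeq, TopHat2 2.0.14, DESeq2 1.18.1 and FastQC were used, in roles and an order not given there. The sources used here give neither strand setting nor annotation release. Positions and lengths are from GENCODE M21, to which 49326 of 49585 gene IDs matched.

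With R 4.3.3, genes were kept by edgeR's filterByExpr (minimum count 10, minimum total 15), with TMM factors, and the main test was edgeR 4.0.16's quasi-likelihood test with 1 mean per group and no covariate. Comparisons between populations used the unirradiated libraries of the groups compared, and those within a population all its libraries. P-values were adjusted by Benjamini-Hochberg over all genes tested in each of 31 comparisons, at a threshold of 0.05. DESeq2 1.42.0, RLE scaling, no filter, a replicate block and leaving out each library were alternatives. Leaving out libraries with totals under 3000000 or over 30000 genes detected was chosen after seeing the data. The test was checked on simulated data. Correlations were tested with 100000 permutations. Intervals are at 95%.

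The members and lists were chosen with earlier results of these data known. All 9 members are named in every comparison, and from other lists up to 4 genes past the threshold with the smallest adjusted p. For some lists, genes called in the less common direction were named besides.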

Additional observations from a re-analysis of the deposited data

Results flagged for a closer look

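In groups of 4 to 10 libraries, a library was picked out when it stood farther from the rest than Dixon's 95% critical value allows. Of 162 gene-and-group combinations tested 25 were picked out, each the highest library of its group. The critical value allows about 1 in 20 for normally distributed values. CPM are skewed and often near 0, and the genes share libraries, so that rate does not hold here. The number picked out therefore does not show an excess over chance. No cause was tested.

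Large-stage monocytes 5 had 120.2 CPM of Flt3 (18.04 to 32.0 in the other 4), 38.3 of Clec9a (0.0898 to 2.10) and 18.9 of Itgae (0.0954 to 1.71). Its plasmacytoid dendritic cell markers summed to 891 CPM, against 314 to 336 in the others. The same library was the highest of its group for cDC2 markers (319, against 30.4 to 150) and B cell markers (391, against 31.9 to 297). So it was for epithelial or tumour cell markers (62.6, against 5.48 to 17.9) and for cDC1 markers, which include Clec9a and Itgae (228, against 59.5 to 154). Microglia 4 at day 3 of 5x2 Gy had 23.5 CPM of Flt3 (1.52 to 1.97 in the other 3), 1.42 of Clec9a (0 to 0.158), 26.545 of Itgae (1.55 to 3.24), 61.2 of Cd209a (1.501 to 3.97) and 56.2 of Dpp4 (0.664 to 2.84). Its monocyte markers summed to 356 CPM, against 17.9, 39.0 and 28.4 in the others, and its cDC2 markers, which include Cd209a, to 266, against 62.8, 88.7 and 67.7.

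Small-stage BMDM 2 had 81.8 CPM of Batf3 (28.1 to 43.0 in the other 4) and 1023 of Irf8 (443 to 522). Small-stage granulocytes 1 had 42.0 CPM of Clec9a (1.28 to 3.04), and large-stage monocytes 3 had 22.3 of Zbtb46 (0.286 to 3.80). That granulocyte library had 7531 detected genes, the fewest of all libraries. Its plasmacytoid dendritic cell markers summed to 1131 CPM (40.0 to 241 in the others) and its recruited macrophage markers to 2555 (296 to 727). Its cDC1 markers, which include Clec9a, summed to 665 CPM (124 to 178). So B cell markers (527, against 96.4 to 324), T cell markers (144, against 26.1 to 53.4) and granulocyte markers (27500, against 7678 to 17020) were also the highest of the group. The cDC2 markers (133, against 192 to 303) and epithelial or tumour cell markers (0.532, against 12.2 to 39.7) were the lowest. Among blood monocytes, library 2 had 13.8 CPM of Xcr1 (4.42 to 5.93) and library 4 had 36.2 of Batf3 (6.42 to 11.2). Tumour-free microglia 2 had 0.387 CPM of Clec9a, and the other 3 had 0.

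For Cd209a, small-stage microglia 5 had 21.7 CPM (0.484 to 5.22 in the others), large-stage microglia 3 had 18.9 (0.434 to 2.77), microglia 3 at day 5 of 5x2 Gy had 20.005 (0.519 to 3.55), small-stage monocytes 3 had 85.4 (48.9 to 53.3) and large-stage granulocytes 4 had 10.55 (0.354 to 1.70). Large-stage microglia 3 also had 10.3 CPM of Dpp4 (0.347 to 2.94). At day 5 of 5x2 Gy, monocytes 3 had 13.1 CPM of Batf3 (7.51 to 7.62), and granulocytes 2 had 0.619 of Batf3 (0 in the others) and 2.85 of Dpp4 (0.11 to 0.297). Granulocytes 1 at day 3 of 5x2 Gy had 0.978 CPM of Dpp4 (0 to 0.137).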

How the results depend on the processing

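Of 35 calls of single members, 31 were kept in every leave-one-out fit, 32 with RLE scaling, 32 without a filter, 34 with a replicate block, 32 with DESeq2 and 29 without the 11 libraries of low depth or many detected genes, and no direction was reversed. Leaving out each library gave 8 to 9 members called against microglia, 7 to 8 against monocytes, 9 against granulocytes, 6 to 8 against blood monocytes, 0 to 1 for tumour against blood monocytes, 0 to 2 and 1 to 2 for small- and large-stage against tumour-free microglia, 0 for stage, radiotherapy and interactions, and 2 to 14 correlated pairs. Without the 11 libraries 4 were called against blood monocytes in place of 7. For tumour against blood monocytes 2 were called without a filter and 1 with DESeq2, in place of 0. For small-stage microglia none (0) was called without a filter, without the 11 libraries or with the compared groups alone, in place of 1, and for large-stage microglia 1 with RLE scaling or DESeq2 and 0 in those 3 settings, in place of 2. For stage, RLE scaling called 1 (Clec9a in granulocytes, -3.87, adjusted p = 0.0214). For radiotherapy, no filter and DESeq2 called 2 and 4 in BMDM, 1 and 2 in monocytes and 1 and 1 in granulocytes (Irf8 at day 5), and the small stage alone as baseline called 1 in BMDM, in place of 0 each, while the large stage alone called 0. The correlations gave 23 pairs on CPM and 3 with stage means subtracted, in place of 10. The causes were not tested.

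Groups share replicate numbers, but same-numbered libraries of BMDM and of the other tumour populations correlated between -0.22 and 0.409. Every pair exceeded 0.1 for BMDM with monocytes at day 3 (0.112 to 0.409) and day 10 (0.166 to 0.298) of 5x2 Gy and for granulocytes at day 5 with the small stage (0.122 to 0.291), but not for the unirradiated groups that enter the same interaction tests or for the other groups compared. For BMDM with monocytes in the irradiated groups, same-numbered pairs had medians of 0.134 to 0.278, against -0.0998 to -0.0577 for differently numbered pairs. Between populations only large-stage BMDM with microglia went the other way (-0.0725 against -0.0138). Equal numbers may mark shared animals or batches, which was not tested. The main tests took the libraries as unpaired. In the comparisons where every pair exceeded 0.1, 0 members were called with or without the block. With the replicate block 1 member was called in large-stage microglia in place of 2, since Irf8 (0.46) had an adjusted p of 0.0735, and no other member call changed.

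Counts over all genes moved more. Against blood monocytes 6484 genes were called in BMDM, 18243 without a filter, 3518 with the block and 599 without the 11 libraries, and 4127 in tumour monocytes, 24097 without a filter and 211 without the 11 libraries. Small-stage microglia gave 3035, 1979 with the block, and 1359 without the 11 libraries, and large-stage microglia 6309, 3878 and 2955, or 1095 with the compared groups alone. The granulocyte stage comparison gave 2 and, with RLE scaling, 1653. With RLE scaling the all-gene median shifted by -0.34 for BMDM and -0.25 for tumour monocytes against blood monocytes, and the share of calls that were higher became 17.8% in place of 29.3% and 28.1% in place of 40.2%. For small- and large-stage against tumour-free microglia the shifts were -0.18 and -0.25 and the shares 33.9% in place of 49.1% and 23.4% in place of 36.7%, and in granulocytes the shifts were -0.20 for stage and for day 5, -0.22 for day 3 of 5x2 Gy and -0.28 for 1x10 Gy.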
